A study of Mus musculus with 18 samples.

Results

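The 10 genes examined belong to the glycosyltransferase families that build N-acetyllactosamine chains: B3gnt2, B3gnt3, B3gnt5, B3gnt7, B3gnt8, B3gnt9, B4galt1, B4galt3, B4galt4 and B4galt5. All 10 were found by symbol, among the 24111 genes of the count table. They were chosen by the difference in B3gnt7 RNA between the treatment groups of these same libraries, with the other 9 taken as its paralogs and partners. The values of dDAVP against control are therefore given for these genes as a description, without a test. RNA was sequenced from mpkCCD cells, a mouse collecting duct line that resembles principal cells, the vasopressin-responsive cells of that segment, in 9 dDAVP libraries and 9 control libraries. The dDAVP cells were given 0.1 nM dDAVP (desmopressin, a vasopressin analog that acts on the V2 receptor and raises cyclic AMP) in medium without serum for 24 h. The control cells were kept in the same medium without dDAVP for those 24 h. Both groups had been grown to confluence on permeable supports and then held for 24 h without serum, and all cells were of 1 line. The labels number the libraries 1 to 9 in each group and state no genotype difference between groups. Libraries 1 to 3, 4 to 6 and 7 to 9 are treated as 3 sets here, a division taken from earlier results of these data and named in no label.

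N-acetyllactosamine is a disaccharide of galactose and N-acetylglucosamine that caps or extends the sugar chains of glycoproteins and glycolipids in the Golgi apparatus. B3GNT enzymes add N-acetylglucosamine to a terminal galactose, B4GALT enzymes add galactose to a terminal N-acetylglucosamine, and alternation of both reactions lengthens the chain. The members differ in the acceptor they prefer: B3GNT7 acts in elongation of keratan sulfate chains, B3GNT2 is the broad poly-N-acetyllactosamine synthase, B3GNT3 extends O-glycans of the mucin type, and B3GNT5 starts the lacto series of glycolipids. Of the partners, B4GALT1 is the general galactosyltransferase of N-glycans and a subunit of lactose synthase, B4GALT4 acts on sulfated N-acetylglucosamine of keratan sulfate, and B4GALT5 makes lactosylceramide.

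B3gnt7 lies on the plus strand at chr1:86302832-86307305 of mouse build GRCm38 (mm10) in GENCODE M21. Promoter windows of 250 bases before the RefSeq start (build GRCm38.p6) were found for 9 of the 10 genes, B3gnt9 being the other one. They were searched on both strands for the cAMP response element TGACGTCA, the binding motif of the cyclic AMP-responsive factor CREB, for its shorter core TGACG, and for the AP-1 motif TGANTCA. Those letters occur in 1.55%, 17.8% and 6.75% of all 32851 RefSeq promoter windows of this length. The following windows are shown 5′ to 3′ on the strand of the gene because B3gnt7 differed most between the treatments, B4galt1 differed most between sets of libraries, and B4galt3 is the one member with the full element, which is in capitals.
B3gnt7, chr1:86302971-86303220, plus strand: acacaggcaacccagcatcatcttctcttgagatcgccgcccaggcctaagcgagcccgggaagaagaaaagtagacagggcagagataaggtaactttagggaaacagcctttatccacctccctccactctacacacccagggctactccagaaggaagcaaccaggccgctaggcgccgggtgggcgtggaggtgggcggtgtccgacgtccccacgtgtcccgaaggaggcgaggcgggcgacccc
B4galt1, chr4:40853985-40854234, minus strand: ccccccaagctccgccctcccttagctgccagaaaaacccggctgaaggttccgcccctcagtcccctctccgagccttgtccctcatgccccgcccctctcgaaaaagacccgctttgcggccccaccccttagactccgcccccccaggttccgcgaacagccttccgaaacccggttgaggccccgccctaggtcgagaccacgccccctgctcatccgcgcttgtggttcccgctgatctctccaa
B4galt3, chr1:171270078-171270327, plus strand: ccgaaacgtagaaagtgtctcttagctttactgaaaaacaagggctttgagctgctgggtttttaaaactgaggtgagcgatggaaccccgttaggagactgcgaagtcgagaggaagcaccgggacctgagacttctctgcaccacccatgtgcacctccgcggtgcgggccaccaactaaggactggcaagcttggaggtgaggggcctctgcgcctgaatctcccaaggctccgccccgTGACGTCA
None of the 3 motifs was in the B3gnt7 or B4galt1 window. The element in the B4galt3 window spans the last 8 bases before the start, and both matches to the core there are parts of it. B3gnt2 and B3gnt5 each had 1 core match in their windows, starting 63 and 69 bases before the start, and the other 4 windows had no match. A match is a description of letters and no evidence of binding, and no match says only that these letters are not in the window. The B3gnt7 window lies within an exon of a non-coding B3gnt7 transcript of GENCODE M21. B3gnt7 also shares 520 exonic bases with an antisense gene, Gm28626, whose reads cannot be told apart from those of B3gnt7 if the counting ignored strand.

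Libraries held 22.2 to 105.9 M counts. Levels are given as normalised CPM (counts relative to the library total after TMM scaling) or as the authors' FPKM, which also divides by gene length and allows genes to be compared. TMM factors lay between 0.306 in dDAVP library 6, where 10282 genes were detected, and 3.16 in dDAVP library 8, so values of these libraries depend on the scaling. The floor of 3 counts was 0.0143 to 0.359 normalised CPM and covers counting error alone, as PCR copies were not told apart from separate molecules. Aqp2, the vasopressin-regulated water channel, averaged 2034 normalised CPM in dDAVP libraries 1 to 3 and 23.8 in control libraries 1 to 3. All 9 principal cell markers had medians over 1 CPM in both groups, summed fibroblast markers reached at most 0.121 CPM in dDAVP and 0.239 CPM in control libraries, and endothelial markers were at 0. Summed intercalated cell markers spanned 0.120 to 19.6 CPM in dDAVP and 0.316 to 13.6 CPM in control libraries, and proximal tubule markers 0.789 to 10.8 and 1.25 to 8.21 CPM. Nothing in the labels says that libraries of a group came from separate cultures, so p-values measure the spread between these samples, which may be technical. In bulk RNA, fewer cells with a transcript and less of it per cell cannot be told apart.

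B3gnt7 was the member with the largest difference between dDAVP and control. Its normalised CPM was 28.0, 34.5 and 41.1 in dDAVP libraries 1 to 3, against 1.04, 1.37 and 1.17 in control libraries 1 to 3. The second set, libraries 4 to 6, had 118, 176 and 75.3 CPM with dDAVP, against 20.1, 24.4 and 31.3 CPM in controls. In the last set, libraries 7 to 9, it was 36.6, 22.6 and 29.2 with dDAVP, against 0.343, 8.39 and 6.25 in controls. Within each set of 3 numbers every dDAVP library was above every control library on this scale, which in libraries 4 to 6 held with TMM factors and not with library totals or FPKM. Across sets the groups overlapped, because control library 6 was above dDAVP libraries 1, 8 and 9. The dDAVP library was the higher of its number in 9 of 9 numbers by normalised CPM, as for 0.405% of genes, and in 8 of 9 by FPKM. The exception on the FPKM scale was number 6. No label pairs the libraries of a number, and this contrast chose B3gnt7, so nothing is read from these counts. Atp6v1b1, a proton pump subunit of intercalated cells, was at 0.411, 7.24 and 6.02 CPM in dDAVP libraries 1 to 3, against 0.732, 0.316 and 0.450 CPM in controls, while Slc26a4, Foxi1 and Kit were at 0 there. In libraries 1 to 3 the groups overlapped. In libraries 4 to 6 every dDAVP library was below every control library by normalised CPM, as for 4.38% of genes. The nearest were dDAVP library 4 at 2.30 CPM and control library 4 at 2.32 CPM. By FPKM the groups overlapped there, with 0.784 in dDAVP library 4 and 0.659 in control library 4. The part of Atp6v1b1 in the B3gnt7 values was not tested.

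**Figure D1:**
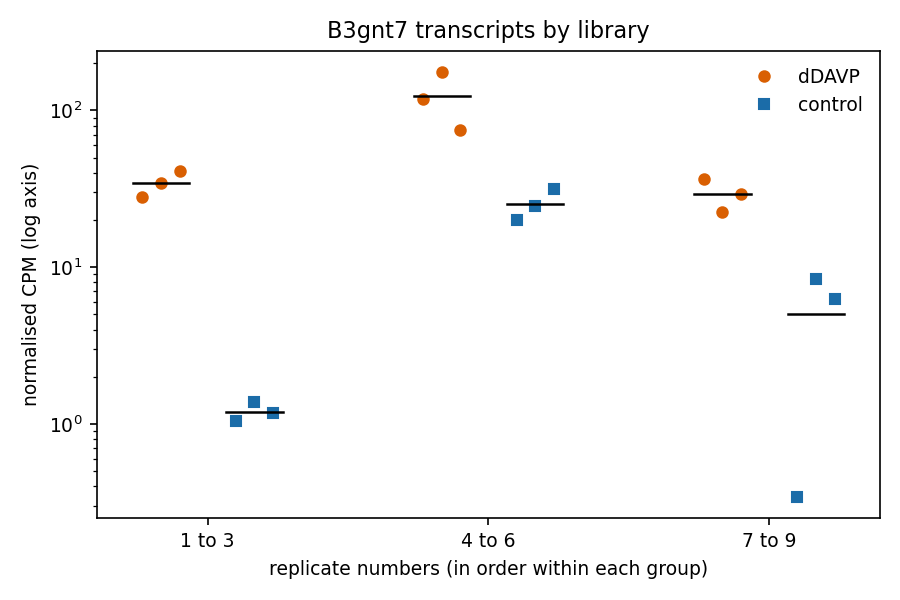
Normalised CPM of B3gnt7 (log axis) in each of the 18 libraries by set of replicate numbers, with dDAVP (circles) left of control (squares); lines are group means. The means were 34.5 and 1.19 CPM for dDAVP and control in libraries 1 to 3, 123 and 25.3 in 4 to 6, and 29.5 and 4.99 in 7 to 9.

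The deposited FPKM gave the same order in 2 of the 3 sets. B3gnt7 was at 10.6, 8.63 and 11.1 FPKM in dDAVP libraries 1 to 3, against 0.275, 0.429 and 0.362 FPKM in control libraries 1 to 3. It was at 29.9, 66.6 and 8.90 FPKM in dDAVP libraries 4 to 6, against 4.25, 11.5 and 11.2 FPKM in control libraries 4 to 6. Here the groups overlapped, since dDAVP library 6 was below control libraries 5 and 6. It was at 18.4, 27.5 and 31.0 FPKM in dDAVP libraries 7 to 9, against 0.307, 4.33 and 2.78 FPKM in control libraries 7 to 9, with no overlap.

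The fitted log2 fold change of B3gnt7 was 2.57 (SE 0.77) over all 18 libraries, and 3.16 (SE 0.49) with the set as a term. It was 4.77 (SE 0.30) in libraries 1 to 3, 2.21 (SE 0.49) in 4 to 6 and 2.54 (SE 0.96) in 7 to 9. The ratio of mean normalised CPM was 29.0 in the first set, 4.87 in the second and 5.90 in the last, and the control mean was lowest in the first. For the background, edgeR's quasi-likelihood test at an adjusted p under 0.05 called 0 of 10121 genes (0%) over all libraries, with 218 genes at an unadjusted p under 0.05 and 12 called by DESeq2. It called 8 genes (0.079%) with the set term and 41 of 8991 genes (0.456%) in libraries 1 to 3. It called 0% in libraries 4 to 6 and 0% in 7 to 9, where DESeq2 called 29 and 94 genes and 479 and 590 genes had an unadjusted p under 0.05. These counts describe all genes, and no call is given for the members. A fit with each replicate number as a block called 1 gene over all libraries, 101 genes in libraries 1 to 3 and 3 genes in 7 to 9, and the log2 fold change of B3gnt7 over all libraries was 3.42. With the set term it was 2.42 without libraries 1 to 3 and 3.67 without libraries 4 to 6.

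The 3 B3gnt genes above the count filter took different places from set to set. B3gnt2 was at 28.3, 12.1 and 13.4 FPKM in dDAVP libraries 1 to 3, against 11.6, 13.4 and 12.9 FPKM in control libraries 1 to 3. In dDAVP libraries it spanned 1.67 to 8.12 FPKM in the second set and 0.917 to 9.48 FPKM in the last, against 0.357 to 5.55 FPKM and 0.975 to 5.61 FPKM in controls. The groups overlapped in every set by FPKM, and in all but libraries 1 to 3 by normalised CPM. Its log2 fold change with the set term was 0.72 (SE 0.40). GENCODE M21 has a readthrough gene, Gm28048, on the same strand that shares 2449 exonic bases with B3gnt2, so its counts are uncertain. The count table also has a row named B3gnt1, a symbol that RefSeq lists as a synonym of both B3gnt2 and B4gat1. B3gnt2 has a separate row there, and no row was found under the symbol B4gat1. The B3gnt1 row held 139 to 14659 counts in dDAVP and 342 to 11108 counts in control libraries, and is in none of the values given here.

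B3gnt3 spread widely between libraries of a group. It was at 0.921, 0.596 and 1.14 FPKM in dDAVP libraries 1 to 3, against 0.820, 0.489 and 0.826 FPKM in controls. It was at 5.00, 13.1 and 0.0174 FPKM in dDAVP libraries 4 to 6, the last from 1 count, against 3.98, 4.47 and 6.02 FPKM in controls. It was at 43.9, 23.9 and 9.88 FPKM in dDAVP libraries 7 to 9, against 21.5, 62.6 and 184 FPKM in controls. The groups overlapped in every set. The log2 fold change of B3gnt3 was 0.23 (SE 0.37), 0.21 (SE 1.01) and -2.32 (SE 1.09) in the 3 sets in order, and it was -0.02 without dDAVP library 3 in the first set and -0.66 without dDAVP library 5 in the second. In the last set it was -0.88 without control library 9 and -3.70 without dDAVP library 7. That set also divided across the treatment labels. Control library 7 and dDAVP libraries 8 and 9 were at 9.88 to 23.9 FPKM, and the other 3 were at 43.9 to 184 FPKM. B3gnt2 and B4galt4 divided the same libraries with the first 3 higher, as did the TMM factors (2.32 to 3.16 against 1.15 to 1.34). B3gnt7 and the other members above the count filter did not. The share of all genes that divided these libraries in the same way was not taken, so nothing is read from it about these members. The cause of this division was not tested.

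The remaining B3gnt genes gave little or no signal. B3gnt5 had 0 counts in all 18 libraries. B3gnt8, which in human cells forms a complex with B3GNT2, had 6 counts in control library 8 and 0 in the other 17. B3gnt9, whose acceptor is poorly known, had 0 to 257 counts in dDAVP libraries and 0 to 264 in control libraries, and 5 libraries held all counts above 1. It passed the filter in libraries 7 to 9 alone, where its log2 fold change was -0.47 (SE 1.94). B3gnt8 and B3gnt9 share exonic bases with genes on the opposite strand, Bckdha (1171 bases) and D230025D16Rik (416 bases).

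Within a library the share of each gene in the summed FPKM of the 6 B3gnt genes does not depend on the scaling of that library. B3gnt7 made up 26.7, 40.4 and 43.2% of that sum in dDAVP libraries 1 to 3, against 2.16, 2.99 and 2.57% in control libraries 1 to 3. It made up 81.8, 75.8 and 69.0% in dDAVP libraries 4 to 6, against 49.5, 53.5 and 51.6% in control libraries 4 to 6. It made up 29.0, 44.0 and 67.6% in dDAVP libraries 7 to 9, against 1.12, 6.25 and 1.48% in control libraries 7 to 9. The shares did not overlap in any set. This contrast chose B3gnt7, whose FPKM is the numerator of the share, so nothing is read from the lack of overlap. A share also moves with the other genes of the sum: in dDAVP library 6 B3gnt7 was at 8.90 FPKM, below control libraries 5 and 6, and B3gnt3 was at 0.0174 FPKM from 1 count. Among controls the leading gene was B3gnt2 in libraries 1 to 3 (91.3 to 93.6%), B3gnt7 in libraries 4 to 6, and B3gnt3 in libraries 7 to 9 (78.4 to 97.9%).

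**Figure D2:**
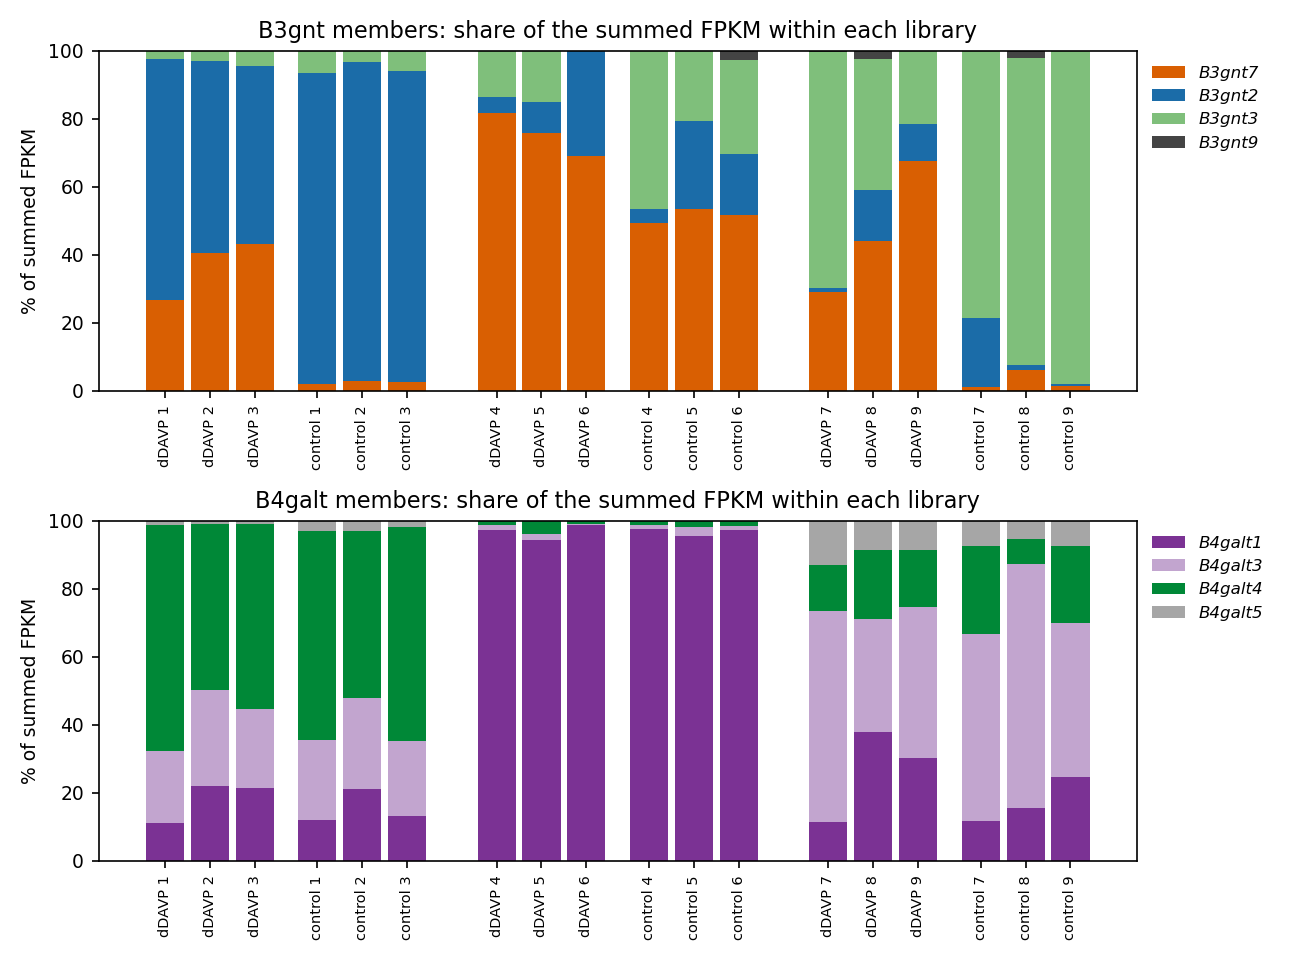
Share of each gene in the summed FPKM of the B3gnt genes (top) and of the 4 B4galt genes (bottom) in each library, with the dDAVP libraries of a set left of its control libraries. B3gnt7 held 26.7 to 81.8% in dDAVP and 1.12 to 53.5% in control libraries, and B4galt1 held 94.4 to 98.7% in dDAVP and 95.5 to 97.4% in control libraries 4 to 6.

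Among the galactosyltransferases, B4galt1 (chr4:40804602-40854005, minus strand) separated the sets far more than the treatment groups. It was at 5.31, 7.10 and 8.90 FPKM in dDAVP libraries 1 to 3, against 3.20, 5.83 and 4.74 FPKM in controls. It was at 732, 659 and 1141 FPKM in dDAVP libraries 4 to 6, against 644, 708 and 868 FPKM in controls. It was at 5.73, 57.7 and 62.9 FPKM in dDAVP libraries 7 to 9, against 8.92, 14.7 and 8.18 FPKM in controls. The treatment groups overlapped in every set, while every library of the second set was far above all others. There it ranked 57th to 102nd of all genes by FPKM in dDAVP and 82nd to 109th in control libraries, and took 0.299 to 0.518% of all counts in dDAVP and 0.292 to 0.393% in control libraries. B4galt1 shares no stretch of 50 bases, the read length, with any other gene of GENCODE M21. Its log2 fold change of dDAVP over control with the set term was 0.94 (SE 0.37); in libraries 4 to 6 it was 1.05 (SE 0.93), and -0.09 without dDAVP library 6.

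**Figure D3:**
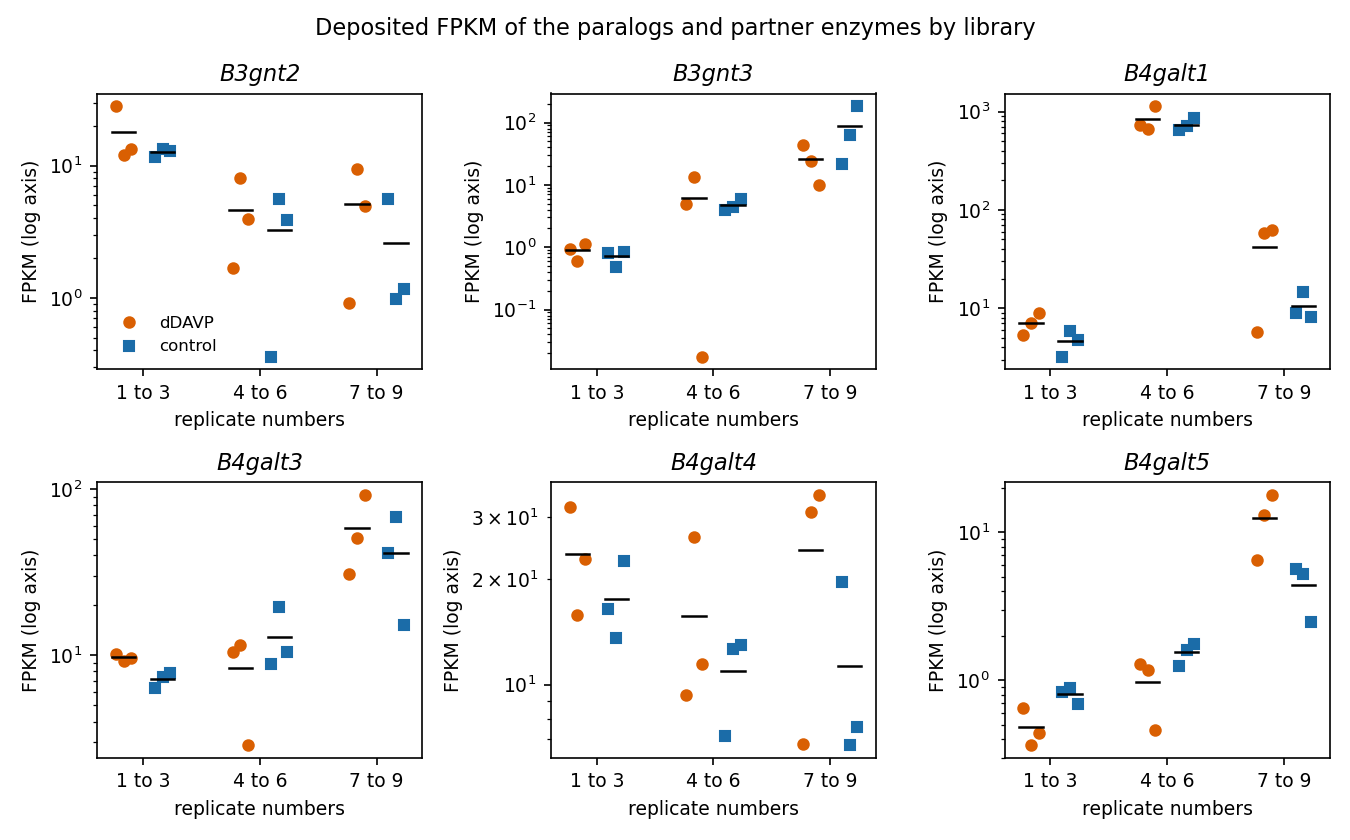
Deposited FPKM (log axes, each panel with its own range) of the 6 other members above the count filter in each library, by set of replicate numbers, with dDAVP (circles) left of control (squares) and lines for means. B4galt1 averaged 844 FPKM in dDAVP and 740 FPKM in control libraries 4 to 6, and 7.10 and 4.59 FPKM in libraries 1 to 3.

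B4galt4, the partner known from keratan sulfate, was at 32.0, 15.8 and 22.7 FPKM in dDAVP libraries 1 to 3, against 16.4, 13.6 and 22.5 FPKM in controls. It was at 9.33, 26.3 and 11.5 FPKM in dDAVP libraries 4 to 6, against 7.14, 12.6 and 13.0 FPKM in controls. It was at 6.79, 31.0 and 34.8 FPKM in dDAVP libraries 7 to 9, against 19.6, 6.72 and 7.59 FPKM in controls. The groups overlapped in every set on this scale. By normalised CPM they did not overlap in libraries 4 to 6, with 33.4 to 87.9 CPM in dDAVP and 24.2 to 32.9 CPM in control libraries. The dDAVP library was the higher of its number in 8 of 9 numbers by normalised CPM and in 7 of 9 by FPKM. B3gnt2 and B4galt1 had the same counts. The share of all genes with such counts was not taken and no label pairs these libraries, so nothing is read from them. The log2 fold change of B4galt4 with the set term was 0.64 (SE 0.27).

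B4galt5 pointed in opposite directions in the first and last sets. It was at 0.653, 0.363 and 0.439 FPKM in dDAVP libraries 1 to 3, against 0.830, 0.886 and 0.688 FPKM in controls, so every dDAVP library was lower. It was at 6.45, 13.1 and 18 FPKM in dDAVP libraries 7 to 9, against 5.62, 5.19 and 2.47 FPKM in controls, so every dDAVP library was higher. In libraries 4 to 6 it was at 1.28, 1.17 and 0.462 FPKM with dDAVP, against 1.25, 1.61 and 1.76 FPKM in controls, with overlap. Its log2 fold change was -0.82 (SE 0.32), -0.28 (SE 0.67) and 0.85 (SE 0.68) in the sets in order. B4galt3, a galactosyltransferase of N-glycans, was at 9.21 to 10.3 FPKM in dDAVP and 6.33 to 7.80 FPKM in control libraries 1 to 3, with overlap in the other sets and a log2 fold change of 0.03 (SE 0.29) with the set term. It shares 791 exonic bases with Ppox on the opposite strand, and the strand setting of the counting is not given in the sources used here.

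**Figure D4:**
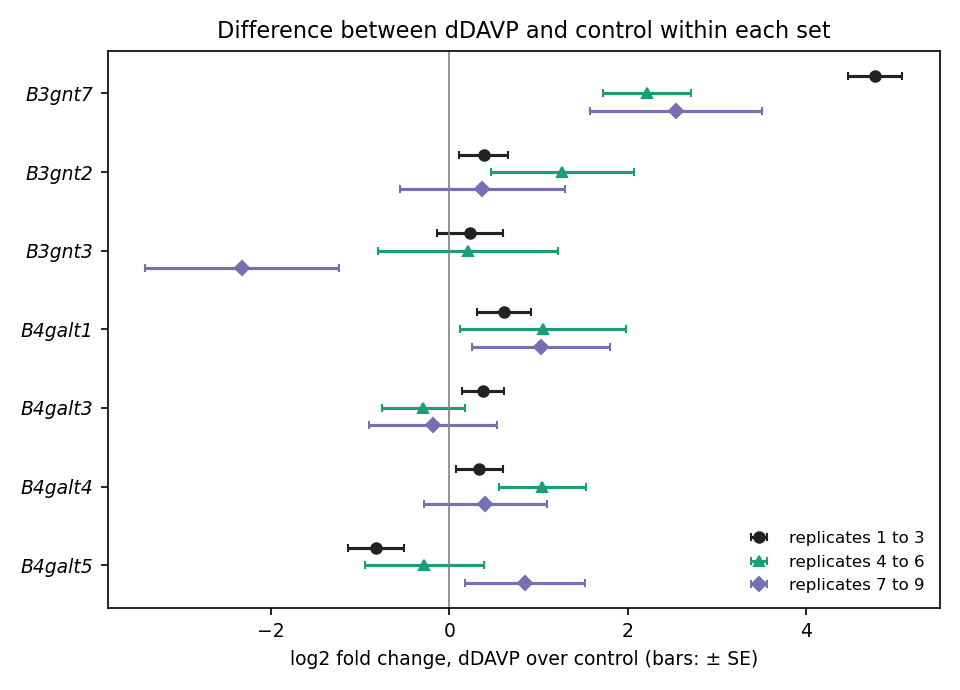
Log2 fold change of dDAVP over control (bars are ± SE) of the 7 members above the count filter within libraries 1 to 3, 4 to 6 and 7 to 9. B3gnt7 lies at 4.77, 2.21 and 2.54, and the other members lie between -2.32 and 1.27.

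By normalised CPM, 3 members were higher in dDAVP without overlap in libraries 1 to 3 (B3gnt7, B3gnt2 and B4galt3) where 7.47% of genes were, and B4galt5 was lower, as were 6.93% of genes. In libraries 4 to 6 these were B3gnt7 and B4galt4 (5.38% of genes), and in libraries 7 to 9 they were B3gnt7 and B4galt5 (4.56% of genes), all higher. Non-overlap with dDAVP higher in all 3 sets was met by 12 of 10121 genes (0.119%), of which B3gnt7 was the 1 member. With library totals in place of TMM factors, 5 genes met it (0.0494%), and B3gnt7 was not among them: dDAVP library 6 had 23.1 CPM on that scale, against 29.9 and 29.0 CPM in control libraries 5 and 6. By FPKM, B3gnt7 and B4galt3 were higher without overlap in libraries 1 to 3 (10.3% of genes) and B4galt5 was lower (4.1% of genes), and B3gnt7 and B4galt5 were higher in libraries 7 to 9 (8.18% of genes). The treatment contrast chose the members, so nothing is read from these counts.

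Levels also differed between the sets among the 9 control libraries. The division into sets came from earlier results of these data, so these differences are given as a description, without p-values. Between the sets 59.9% of 11005 genes passed edgeR's quasi-likelihood F test at an adjusted p under 0.05, so a difference was common among all genes. B4galt1 was higher in control libraries 4 to 6 than in control libraries 1 to 3 by 6.98 on the log2 scale, a difference that 1.75% of genes exceeded. B3gnt7 was higher by 4.16 in control libraries 4 to 6 and by 1.85 in 7 to 9 than in 1 to 3, and these control values are also part of the treatment difference that chose it. B3gnt3 was higher by 2.36 and 6.10. B3gnt2 differed by -2.60 and -3.80, B4galt4 by -1.12 and -1.98, B4galt3 by 0.39 and 1.29, and B4galt5 by 0.54 and 1.19. With means of CPM by library totals all these signs were kept, but B4galt4 differed by -0.68 and -0.63, B4galt3 by 0.85 and 2.53 and B4galt5 by 0.94 and 2.47. Summed principal cell markers differed too: 1192 to 1685 CPM in control libraries 4 to 6 and 3732 to 8785 CPM in 7 to 9, against 11051 to 16403 CPM in 1 to 3. In control libraries 1 to 3 Krt18 was the largest part of this sum, with a mean of 9613 CPM. Single markers went both ways. In 4 to 6 over 1 to 3, Hsd11b2, Gata3 and Aqp2 were higher by 4.00, 3.22 and 0.50 on the log2 scale. Cdh1, Krt18, Tfcp2l1 and Krt8 differed by -5.55, -4.28, -2.35 and -2.08, and Avpr2 and Scnn1a by -0.42 and -0.08. In 7 to 9 over 1 to 3, Gata3, Aqp2, Scnn1a and Krt8 were higher and the other markers lower. The part of these markers in the set differences was not tested.

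Other family genes varied between sets. B4galt2 was at 0.0595 to 12.6 FPKM in dDAVP and 0.0521 to 9.14 FPKM in control libraries, B4galt7, which acts in the linker of glycosaminoglycans, at 0 to 3.02 and 0.0227 to 3.76 FPKM, and B3gntl1 at 0.0386 to 7.52 and 0.0442 to 1.59 FPKM. None of these 3 was called by edgeR in any comparison of dDAVP with control in which it was tested. Such calls were rare among all genes, at 0 to 0.456% per comparison, so nothing is read from their absence. In libraries 4 to 6 B3gntl1 was lower in dDAVP without overlap by normalised CPM (means 0.674 and 2.66), as were 4.38% of genes. By FPKM it overlapped there, with 0.371 in dDAVP library 5 and 0.318 in control library 4. B3gnt4 and B3gnt6 reached at most 0.319 and 0.0166 FPKM in dDAVP and 0.438 and 0.0362 FPKM in control libraries.

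Around the members, 11 lists of 92 genes covered the sugar donors, the neighbouring enzymes, the carriers and the lectins of these chains. With the set term 54 were tested, 0 of them passed in either direction by edgeR, and 4 had an unadjusted p under 0.05. Of all 10121 genes tested 8 passed (0.079%), and 6.03% had an unadjusted p under 0.05. At such a share 0 calls are usual in lists of this size, so nothing is read from the counts of 0. DESeq2 called 1 of the 54 (Slc35d2, higher), voom with quality weights called 1 (St3gal6, lower), and limma on FPKM called 0 of the 31 it tested. The median log2 fold change of the 54 was 0.03, against 0.02 over all genes tested. None of the 5 sulfotransferases or 7 core proteins of keratan sulfate passed the count filter over all libraries or in libraries 1 to 3. Chst7, a sulfotransferase of that list, passed it in libraries 4 to 6 and 7 to 9, with log2 fold changes of 0.75 (SE 1.71) and 2.23 (SE 1.87). Of the sialic acid and fucose enzymes 0 of 10 passed: St3gal6, a sialyltransferase that caps N-acetyllactosamine, averaged 18.3 ± 14.3 CPM in dDAVP and 38.5 ± 22.1 CPM in control libraries (SD, n = 9 each), with a log2 fold change of -1.22 (SE 0.34; edgeR adjusted p = 0.471). Of the sugar donor genes 0 of 12 passed: Slc35d2, a Golgi transporter of nucleotide sugars, averaged 7.32 ± 11.8 CPM in dDAVP and 2.81 ± 4.24 CPM in control libraries, with a log2 fold change of 1.58 (SE 0.39; edgeR adjusted p = 0.308).

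Of the core and branching enzymes of the N-acetyllactosamine chain 0 of 3 passed, and of the N-glycan branching enzymes 0 of 4. With the set term 0.079% of all genes passed, so nothing is read from these or the later list counts of 0. Gcnt3, which starts branched cores of mucin type O-glycans, averaged 2140 ± 2395 CPM in dDAVP and 459 ± 143 CPM in control libraries 4 to 6, and 2.30 ± 0.618 CPM and 1.48 ± 0.272 CPM in libraries 1 to 3 (SD, n = 3 each). Mgat4a, a branching enzyme of N-glycans, averaged 147 ± 96.4 CPM in dDAVP and 45.4 ± 26.3 CPM in control libraries 4 to 6, and 3.24 ± 1.47 CPM and 2.76 ± 0.287 CPM in libraries 1 to 3. Among dDAVP libraries 4 to 6 the highest was library 6, with 4905 CPM of Gcnt3 and 258 CPM of Mgat4a, and the means without it were 757 and 90.9 CPM. Both were high in the set in which B4galt1 was high: in control libraries 4 to 6 over 1 to 3 they were higher by 8.01 and 3.76 on the log2 scale. A level in control libraries 4 to 6 above both other sets without overlap was met by 12.3% of 11005 genes, so nothing is read from it. Among the controls, 35 of 61 tested list genes differed between sets (57.4%), against 59.9% of all genes. In the lists of galactosyltransferases (0 of 3 passed), mucin type initiation (0 of 7), glycolipid synthesis (0 of 6), galectins (0 of 4) and carrier proteins (0 of 5), the genes with the smallest p were B3galnt2, Galnt3, Ugt8a, Lgals9 and Itgb1, at log2 fold changes of -0.38, -0.73, -0.69, 0.75 and -0.78 with the set term.

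The genes whose pattern was most like that of B3gnt7 were sought by Pearson's r of log2(normalised CPM + 1) over the 18 libraries among 9258 genes. They were Eya2, a transcriptional coactivator and phosphatase (r = 0.85, Spearman's rho 0.86), Aqp6, an aquaporin (0.85, rho 0.82), Bcat1, a branched-chain aminotransferase (0.79, rho 0.76), St5 (0.78, rho 0.79) and Metrnl, a secreted protein (0.78, rho 0.73). With an offset of 0.1 CPM, 3 of these 5 were again among the first 5. After removal of the set means the highest r belonged to Aqp2 (0.93), Cited1 (0.92), Eya2 (0.89), Marveld1 (0.88) and Car15 (0.84). The libraries share treatment, set and scaling, so these values are a description of 18 points. Some of these genes were low. Means per group and set were 0.219 to 2.57 CPM for Aqp6, 0.566 to 5.79 for Metrnl and 0.106 to 6.69 for Car15. At such levels the offset of 1 CPM weighs on r. In libraries 4 to 6 Aqp6 averaged 2.46 CPM in dDAVP and 2.57 CPM in control libraries. Of the members, B4galt1 had r = 0.64 with B3gnt7, rank 89 of the genes compared, and the others lay between -0.05 and 0.20. After removal of the set means B4galt1 had r = 0.42 (rank 712) and B4galt4 r = 0.38 (rank 991).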

How the data were processed

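Raw counts per gene were deposited by the authors as whole numbers and FPKM as a separate table with values divided by gene length and counted reads. Alignment and counting tools named in the submitters' processing notes are STAR 2.4.0.1, HTSeq and SAMtools, with build mm10. The annotation release and strand setting are not given in the sources used here. Per the labels' protocols, 20 ng of RNA and single-end reads of 50 bases were used, and both a low-input kit and a single-cell protocol are described. Library totals were 22.2 to 105.9 M counts. The members, lists and tests were chosen with earlier results of these data known.

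Genes were kept by filterByExpr (least count 10), scaled by TMM and tested with edgeR 4.0.16 quasi-likelihood fits (two-sided, Benjamini-Hochberg adjusted p under 0.05) in R 4.3.3, after checks on simulated data: without covariates, with the set of numbers as a term, within sets, as an interaction, and between sets in controls. The simulated spread between libraries was smaller than that of the data in every fit but that of libraries 1 to 3. The common biological coefficient of variation of the data was 0.292 there and 0.650 to 1.05 in the other fits. For the fit over all libraries the simulation held no set differences, so the checks do not cover the spread of these data. SEs are the log2 fold change over the square root of F. Other settings were DESeq2 1.42.0, limma 3.58.1 on log2(FPKM + 1), voom weights, other scalings and filters, the replicate block and libraries left out. Python 3.11.15 read the annotation. Members of each list were named by the smallest p with the set term.

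Libraries of the same number correlated in their deviations from group means (r 0.399 to 0.926 for the 9 numbers, across genes), so blocked values are given where they change a count. After removal of set means r was -0.706 to 0.430. Chi-square over its degrees of freedom was at least 63.9 for every pair of libraries in a group, so none were counted as duplicates.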

Additional observations from a re-analysis of the deposited data

Results flagged for a closer look

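Of 17 groups of 9 libraries checked by normalised CPM, 6 held 1 library whose gap to its nearest neighbour was large for the range of its group, where chance flags about 1 in 20 groups of like values. These groups pool 3 sets with different levels, so that rate need not hold here. B3gnt3 stood at 70.8 CPM in dDAVP library 7, against 28.1 CPM in the next dDAVP library. B3gnt3 also stood at 334 CPM in control library 9, against 98.3 CPM in the next control library. B4galt1 stood at 16891 CPM in dDAVP library 6, against 5062 CPM in the next, and this library has the lowest TMM factor, 0.306, while its FPKM was 1141, against 732 FPKM in the next dDAVP library. B4galt3 stood at 101 CPM in control library 8, against 35.7 CPM in the next control library. B3gnt9 stood at 1.22 CPM in dDAVP library 8, against 0.558 CPM in the next, and B3gnt8 at 0.0570 CPM in control library 8, against 0 in the other 8 controls.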

How the results depend on the processing

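The number of genes called moved with the tool and the libraries used. Over all libraries it was 0, but 12 with DESeq2, 1 with the replicate block, 2 with limma on FPKM, 11 with voom quality weights, 2 without libraries 7 to 9, and 0 to 1 with 1 library left out (1 without control library 9). With the set term it was 8, but 5 with library totals, 31 with DESeq2, 1 with the replicate block, 4 with limma on FPKM, 118 with voom quality weights, 0 without libraries 1 to 3, 0 without libraries 4 to 6, and 4 to 9 with 1 library left out (4 without dDAVP library 8). In libraries 1 to 3 it was 41, but 123 with DESeq2, 207 without a filter, 101 with the replicate block, and 13 to 774 with 1 library left out (774 without dDAVP library 1; 14, 13 and 15 without control libraries 1, 2 and 3; 24 without dDAVP library 2). In libraries 4 to 6 it was 0, but 1 with library totals, 29 with DESeq2, 1 without a filter, and 0 to 2 with 1 library left out (2 without dDAVP library 6). In libraries 7 to 9 it was 0, but 7 with library totals, 94 with DESeq2, 30 without a filter, 3 with the replicate block, and 0 to 98 with 1 library left out (98 without dDAVP library 7, 6 without control library 7). The interaction of set and treatment called 0 genes with edgeR, 671 at an unadjusted p under 0.05, 104 with DESeq2 and 35 without a filter. The control sets differed in 6597 genes, or 5205 to 7658 with 1 library left out. The cause of these shifts was not tested, beyond fewer libraries or more genes entering a fit. Of the 5 genes most like B3gnt7, 3 were shared with an offset of 0.1 CPM. The B3gnt7 log2 fold change was positive in all settings run: 2.20 to 4.12 over all libraries, 2.42 to 3.96 with the set term, and 4.68 to 4.94, 1.88 to 2.43 and 2.12 to 3.37 in the 3 sets. Library totals, added after seeing the data, moved the median log2 fold change of all genes to 0.24 over all libraries, -0.38 in 4 to 6 and 0.54 in 7 to 9.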
